A study of Danio rerio with 7 samples.

Results

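Genes of the mineralized matrix were followed in zebrafish hearts lacking functional *taf5*. The members are every gene ID whose symbol starts with scpp, together with *spp1* and *sparc*. There are 7 of them among 33737 gene IDs: *scpp8*, *spp1*, *sparc*, *scpp5*, *scpp9*, *scpp1* and *scpp7*. The group was chosen on the difference between *cora* and control hearts in these same libraries, where *scpp8* differed strongly. The member values in that comparison are therefore given as a description, with no test.

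All embryos carried the *Tg(cmlc2::gfp)* transgene, and their hearts were pooled, untreated, at 96 hpf. That hearts were taken is stated by the paper, whereas the sample titles name only zebrafish embryos. Values given below for hearts are those of these pools. The mutant group was homozygous for the *cora* stl325 allele (stl325/stl325, 4 libraries), and the control group consisted of unaffected clutchmates (3 libraries). The *cora* (corazoncito) allele is a nonsense mutation of *taf5*, which encodes a subunit of the general transcription factor TFIID, and the embryos carry it in every cell. The transgene drives green fluorescent protein in cardiomyocytes. The labels call the genotypes KO and WT, but unaffected clutchmates can include heterozygous carriers. The *cora* libraries are numbered 1 to 4, 2 control libraries are numbered 1 and 3, and 1 control library has no number. Nothing in the sources used here says whether the pools came from separate clutches, so the spread between libraries may be partly technical.

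Secretory calcium-binding phosphoproteins (SCPPs) are extracellular proteins of bone, dentin, enamel and related tissues that bind calcium and steer the growth of mineral. Their genes are thought to descend from a *sparc* ancestor by way of *sparcl1*, and many lie in tandem. SPARC (osteonectin) binds collagen and calcium and is made by many matrix-producing cells, whereas *spp1* encodes osteopontin, an acidic SCPP that binds integrins and CD44 and is made by bone cells and, in mammals, by activated macrophages. The heart is not a mineralized organ at this stage.

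Each library held between 21474488 and 32037220 counted reads, so 3 counts corresponded to between 0.0936 and 0.140 CPM (the count scaled by the library total). *taf5* itself was at 1.97, 3.10, 3.70 and 4.56 normalized CPM (CPM after TMM scaling, which corrects the totals for library composition) in *cora* hearts, against 8.83, 5.10 and 5.27 in control hearts, without overlap (log2 fold change -0.94, SE 0.38, adjusted p = 0.232 by edgeR's quasi-likelihood test). Its exons overlap those of 1 other gene, and strand-specific counting is not stated. The cardiomyocyte markers, among them *myl7*, were present in every library, but the epidermis markers summed to more in each. The epidermis sums ran from 17786 to 28799 normalized CPM in *cora* and from 10702 to 37734 in control libraries. Those for cardiomyocytes ran from 266 to 1610 in *cora* and from 265 to 3120 in control libraries. Of the listed symbols, 11 of 14 for epidermis and 9 of 15 for cardiomyocytes matched. The keratin gene *krt4* alone gave 13775 of 18464 in *cora* 1 and 25425 of 37734 in control 1. These sums are therefore no measure of the shares of the tissues. Control 1 stood apart, with 33.7% of its counts on the mitochondrial chromosome against 16.8% to 21.8% in the others. Across these pools of mixed tissue, fewer cells of a type and less RNA per cell cannot be told apart.

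The members fell into a small number of genomic positions on the Zv9 build. *scpp8* (ENSDARG00000093124) lies on the plus strand of chromosome 10 from 15135382 to 15139446, and *spp1* (ENSDARG00000044276) lies 9839 bp beyond it on the minus strand, from 15149285 to 15157345. *scpp5* (ENSDARG00000078622, 44292453 to 44298087), *scpp7* (ENSDARG00000074132, 44300516 to 44302891) and *scpp9* (ENSDARG00000087178, 44352317 to 44355588) lie together on the minus strand of chromosome 1. *scpp1* (ENSDARG00000090416, 37231110 to 37233939) lies elsewhere on that chromosome, next to *sparcl1*. All 4 are on the chromosome that carries *taf5*, between 5.57 and 12.7 Mb from it. The paper mapped the mutation to a region of this chromosome linked with the phenotype. Mutants and clutchmates may thus also differ in variants linked to *taf5*. For genes on this chromosome, such variants and the loss of *taf5* cannot be told apart. *sparc* (ENSDARG00000019353) lies alone on chromosome 14, from 26948448 to 26966413. No member has exons that overlap, by position, those of another annotated gene. Likeness of sequence to genes elsewhere was not examined.

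*scpp8* was high in *cora* hearts and low in control hearts. Its level was 287, 121, 1018 and 39.1 normalized CPM in *cora* libraries 1 to 4, against 3.87, 1.70 and 1.80 in control 1, control 3 and the unnumbered control library. The groups did not overlap, and the lowest *cora* library was 10.1 times the highest control library. The means were 366 ± 446 (SD, n = 4) in *cora* and 2.46 ± 1.23 (SD, n = 3) in control hearts, and the fitted log2 fold change was 7.23 (SE 1.22).

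The size of the *scpp8* signal differed widely between mutant pools. The deposited counts were 6851, 3241, 22037 and 953 in *cora* libraries, against 90, 56 and 55 in control libraries. In *cora* 3, *scpp8* took 0.103% of all counted reads and ranked 84 among all genes. It ranked 394 in *cora* 1, 1059 in *cora* 2 and 3683 in *cora* 4, against 14199 to 17269 in the control libraries. The *cora* pools thus spanned a 26-fold range and the control pools a 2.28-fold range. Without *cora* 3, the highest pool, the fitted log2 fold change was 5.93.

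**Figure D1:**
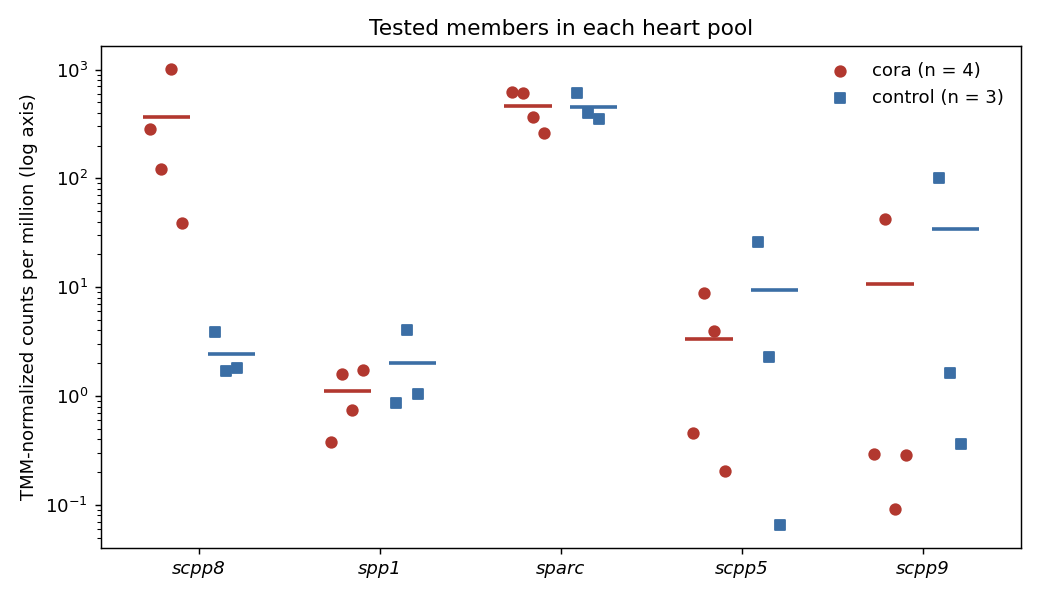
TMM-normalized CPM (log axis) of the 5 tested members in each library; red circles are the 4 *cora* pools, blue squares the 3 control pools and bars the group means. The *scpp8* points separate by group, from 39.1 to 1018 in *cora* and from 1.70 to 3.87 in control pools, whereas the groups overlap for *spp1*, *sparc*, *scpp5* and *scpp9*.

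*spp1*, the neighbour of *scpp8* and the gene for osteopontin, did not share this pattern. Its values were 0.377, 1.61, 0.739 and 1.72 normalized CPM in *cora* libraries, against 0.861, 4.07 and 1.05 in control libraries. The groups overlapped, and the highest value was that of control 3. The means were 1.11 ± 0.659 (SD, n = 4) in *cora* and 1.99 ± 1.80 (SD, n = 3) in control hearts, with a log2 fold change of -0.84 (SE 0.72). These levels rest on 9 to 43 reads per *cora* library and 20 to 134 per control library. Without control 3 the log2 fold change was 0.23, with the opposite sign.

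*sparc* was abundant and close to equal in the group means. Its values were 627, 608, 369 and 264 normalized CPM in *cora* libraries, against 604, 400 and 350 in control libraries. The control values fell within the range of the *cora* values, and the means were 467 ± 179 (SD, n = 4) in *cora* and 451 ± 135 (SD, n = 3) in control hearts. The log2 fold change was 0.05 (SE 0.35), and its range with each library left out, from -0.12 to 0.33, included both signs.

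*scpp5* and *scpp9*, which in other fishes are made by tooth-forming and scale-forming epithelium, varied between pools far more than between genotypes. *scpp9* was at 0.293, 42.0, 0.0924 and 0.287 normalized CPM in *cora* libraries, against 101, 1.64 and 0.360 in control libraries. *scpp5* was at 0.460, 8.79, 3.97 and 0.205 normalized CPM in *cora* libraries, against 26.005, 2.31 and 0.0654 in control libraries. Both genes were highest in control 1 and next highest in *cora* 2, and the groups overlapped. The *scpp9* values rest on 7, 1124, 2 and 7 reads in *cora* libraries, against 2353, 54 and 11 in control libraries. The *scpp5* values rest on 11, 235, 86 and 5 reads in *cora* libraries, against 604, 76 and 2 in control libraries, so that the low pools lie close to the 3-count floor or under it.

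The fitted fold changes of these genes turned on single libraries. For *scpp9* the log2 fold change was -1.68 (SE 2.00), but it was -7.21 without *cora* 2 and 3.41 without control 1. For *scpp5* it was -1.48 (SE 1.46), and 1.496 without control 1. Control 1 and *cora* 2 also had the highest epidermis marker sums, 28799 normalized CPM in *cora* 2 and 37734 in control 1, against 10702 to 21614 in the others. These sums thus differed far less between *cora* pools than *scpp9* did. The same libraries had the lowest cardiomyocyte marker sums, 266 in *cora* 2 and 265 in control 1, against 446 to 3120 in the others. The part of epidermal or heart RNA in the member values was not tested.

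**Figure D2:**
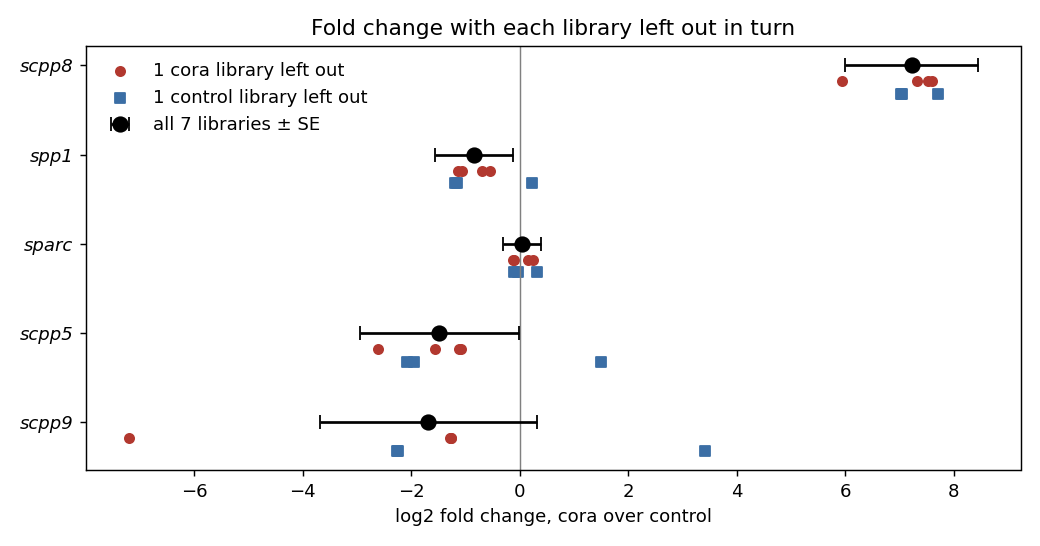
Log2 fold change (*cora* over control, horizontal axis) of the 5 tested members. Black points with bars give the value and SE over all 7 libraries, red circles the values with 1 *cora* library left out and blue squares those with 1 control library left out. *scpp8* stays between 5.93 and 7.72, *sparc* lies near 0, and *scpp9* spans -7.21 to 3.41.

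*scpp1* and *scpp7* were barely detected and did not enter the fit. *scpp1* had 8, 0, 11 and 0 reads in *cora* libraries, against 0, 7 and 7 in control libraries. *scpp7* had 2, 0, 1 and 0 reads in *cora* libraries, against 1, 0 and 0 in control libraries. A count of 0 allows up to 0.117 to 0.122 CPM in the *cora* libraries concerned and up to 0.0936 to 0.108 CPM in the control libraries, from counting error alone. A difference between the groups was not detectable at this depth for either gene.

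Of the 5 tested members, *scpp8* was the one without overlap between the groups, a condition met by 17.7% of all 21632 tested genes. Because the group was selected on this contrast, nothing is read from this count.

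On the per-length scale of the deposited RPKM (CPM per kilobase of exon), the order of the member medians differed by genotype. In *cora* hearts the medians were 192 RPKM for *sparc*, 170 for *scpp8*, 2.43 for *scpp5*, 0.793 for *spp1*, 0.318 for *scpp9*, 0.187 for *scpp1* and 0.0343 for *scpp7*. In control hearts they were 154 for *sparc*, 2.57 for *scpp5*, 1.85 for *scpp9*, 1.51 for *scpp8*, 0.739 for *spp1*, 0.233 for *scpp1* and 0 for *scpp7*. In *cora* hearts *sparc* (93.7 to 247 RPKM) and *scpp8* (29.3 to 810 RPKM) overlapped. So did *scpp5* (0.211 to 10.4), *spp1* (0.262 to 1.16) and *scpp9* (0.102 to 50.3), and the highest *scpp9* value exceeded the lowest *scpp8* value. The *cora* order is thus not fixed. In control hearts *scpp5*, *scpp9*, *scpp8* and *spp1* overlapped one another, so their order is not fixed. *sparc* stood above all other members in each control library. In *cora* 1 *scpp8* was at 236 RPKM and *sparc* at 245, in *cora* 3 *scpp8* was at 810 and *sparc* at 139, and in *cora* 2 and 4 *scpp8* was the lower of the pair.

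The tandem genes on chromosome 1 were examined around *scpp5* and *scpp9*. *odam*, whose mammalian product is made by ameloblasts and by the epithelium that seals the gum to the tooth, lies 6356 bp from *scpp9*. Its level was 0.335, 5.65, 2.91 and 0.205 normalized CPM in *cora* libraries, against 5.25, 0.455 and 0 in control libraries. The unnamed gene si:dkey-22i16.7, between *scpp7* and *odam*, was at 0.502, 5.46, 1.66 and 0.534 normalized CPM in *cora* libraries, against 14.0, 0.364 and 0.196 in control libraries. Like *scpp5* and *scpp9*, both were highest in *cora* 2 among the mutant pools and in control 1 among the control pools. The gene closest to *scpp9*, si:dkey-22i16.9 with a gap of 812 bp, lacked the peak in *cora* 2. Mutant pools 1 to 4 gave 2.13, 2.09, 0.231 and 1.31 normalized CPM for this gene, the lowest on 5 reads. Control 1, control 3 and the unnumbered control gave 4.05, 3.06 and 2.06, so control 1 was again the highest control pool. The *odam* values rest on 8, 151, 63 and 5 reads in *cora* libraries, against 122, 15 and 0 in control libraries. Those of si:dkey-22i16.7 rest on 12, 146, 36 and 13 reads in *cora* libraries, against 326, 12 and 6 in control libraries.

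Over the 7 libraries, log2 CPM of *scpp5* correlated with that of *odam* at r = 0.948 and with that of *scpp9* at r = 0.769. With each library left out these correlations ranged from 0.924 to 0.970 and from 0.594 to 0.952. The correlation of *scpp9* with si:dkey-22i16.7 was 0.821. The points share the genotype, the depth and the tissue makeup of a library. *odam* (log2 fold change 0.28, SE 1.45, adjusted p = 0.949 by edgeR) and si:dkey-22i16.7 (-1.24, SE 1.33, adjusted p = 0.687 by edgeR) did not pass the test.

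*enam*, which encodes enamelin, a protein of forming enamel, lies 4670 bp from *scpp5* but differed by genotype instead. Its values were 1.59, 1.64, 0.0924 and 1.97 normalized CPM in *cora* libraries, against 7.97, 5.70 and 6.64 in control libraries. The groups did not overlap, and *cora* 3, which had the most *scpp8*, had the least *enam*. That low was not particular to *enam*, as si:dkey-22i16.9 was also lowest in *cora* 3, whereas *cnga1* of the same group was highest there. The *enam* values rest on 38, 44, 2 and 48 reads in *cora* libraries, against 185, 188 and 203 in control libraries. The *cora* 3 value thus lies under the 3-count floor. The means were 1.32 ± 0.839 (SD, n = 4) in *cora* and 6.77 ± 1.14 (SD, n = 3) in control hearts, but the adjusted p was 0.119 (edgeR), so the log2 fold change of -2.34 (SE 0.68) did not pass. *enam* passed under 2 of the 17 alternatives that gave a value, DESeq2 (adjusted p = 0.0113) and limma voom with sample quality weights (adjusted p = 0.0259). *ambn*, which encodes ameloblastin and lies between *scpp7* and si:dkey-22i16.7, had 0 reads in 7 of 7 libraries.

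**Figure D3:**
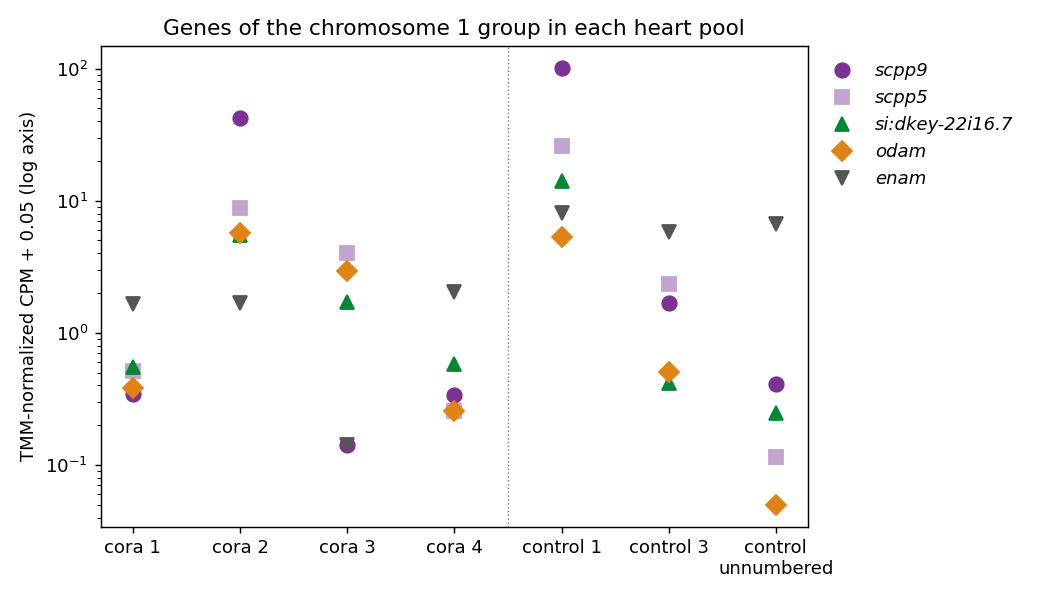
TMM-normalized CPM with 0.05 added (log axis) of *scpp9*, *scpp5*, si:dkey-22i16.7, *odam* and *enam* in each library, *cora* left of the dotted line and control right. The first 4 peak in *cora* 2 and control 1, whereas *enam* lies between 0.0924 and 1.97 in *cora* and between 5.70 and 7.97 in control pools before the addition.

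Within 100000 bp of a member there were 28 other genes, of which 23 were tested. By edgeR, 0 of these passed an adjusted p under 0.05, against 1.97% of all tested genes. At an unadjusted p under 0.05 there were 7 of 23, against 17.7% of all tested genes. By DESeq2 5 passed, against 8.29% of all genes with an adjusted p, by limma voom 0, against 1.79%, and by limma voom with sample quality weights 4, against 14.4%. Their log2 fold changes by edgeR ran from -2.34 for *enam* to 1.89 for *tnip2*, and the groups did not overlap for 7 of the 23, against 17.7% of all tested genes.

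4 of the tested genes lay within this distance of *scpp8*. The nearest, si:ch211-95j8.3, was at 0.0462 to 0.860 normalized CPM in *cora* and 0.121 to 0.295 in control libraries (log2 fold change 1.17, SE 0.89, adjusted p = 0.545 by edgeR). ENSDARG00000090996, which has no symbol, was at 2.68, 8.52, 7.16 and 6.24 in *cora* libraries, against 2.07, 2.15 and 2.06 in control libraries (log2 fold change 1.55, SE 0.42, adjusted p = 0.0982 by edgeR). The tight junction gene *cldn23.1* was at 426, 549, 829 and 667 normalized CPM in *cora* libraries, against 357, 185 and 216 in control libraries. Both of these were higher in each mutant pool than in any control pool. For *cldn23.1* the log2 fold change was 1.29 (SE 0.33) with an adjusted p of 0.0842 by edgeR. It passed under 3 of the 18 alternatives, among them edgeR without control 1 (adjusted p = 0.0275). The 4th, si:dkey-88l16.3, was at 0.0419 to 0.411 in *cora* and 0.212 to 1.94 in control libraries (log2 fold change -2.31, SE 0.97, adjusted p = 0.256 by edgeR). Nearer to *spp1* than to *scpp8*, *sh3bp2* was at 1.44 to 4.44 normalized CPM in *cora* and 5.30 to 9.69 in control libraries (log2 fold change -1.43, SE 0.42, adjusted p = 0.120 by edgeR).

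*tnip2*, beside *scpp1*, was at 2.89 to 6.79 normalized CPM in *cora* and 0.982 to 1.88 in control libraries (log2 fold change 1.89, SE 0.43, adjusted p = 0.0626 by edgeR). *sparcl1*, the relative of *sparc* on its other side, was at 32.1, 16.67, 67.6 and 126 normalized CPM in *cora* libraries, against 43.3, 19.6 and 17.6 in control libraries. These groups overlapped (log2 fold change 1.18, SE 0.64, adjusted p = 0.381 by edgeR). Beside *sparc*, *g3bp1*, a stress granule protein gene, was at 50.8 to 74.1 normalized CPM in *cora* and 34.2 to 49.7 in control libraries (log2 fold change 0.63, SE 0.22, adjusted p = 0.183 by edgeR), while *atox1*, a copper chaperone gene, overlapped between groups (log2 fold change -0.46, SE 0.30, adjusted p = 0.488 by edgeR). On chromosome 1, *tacr3* was at 0.411 to 1.29 normalized CPM in *cora* and 1.54 to 2.15 in control libraries (log2 fold change -1.16, SE 0.51, adjusted p = 0.282 by edgeR). The other 10 tested neighbours, with overlapping groups and log2 fold changes from -1.07 to 0.21, were *glra1* and *slc36a1* beside *sparc*, *dclk2a* and ENSDARG00000036595 beside *scpp1*, and *cnga1*, si:dkey-22i16.9, zgc:66472, si:ch73-109d9.1, si:ch73-109d9.4 and ENSDARG00000086717 in the chromosome 1 group.

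Genes with the pattern of *scpp8* were sought among 11130 tested genes with a name and a mean log2 CPM of at least 2. The 10 most alike over the 7 libraries were *slc25a15*, *krt18a.1*, *tmcc3*, *snap23.2*, *yars1*, *mmp9*, *cbx7a*, *cdc42l*, *tifa* and *ist1*, with r from 0.983 to 0.992. Since *scpp8* separates the genotypes, any gene so chosen does too, and no test is given for these. The choice was not stable, as with 1 library left out between 1 and 5 of the 10 stayed among the most alike, and with scaling by library size alone 3 did.

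The 4 *cora* pools stood in the order of *scpp8*, highest first 3, 1, 2 and 4, for 5 of these 10: *slc25a15*, *snap23.2*, *mmp9*, *cbx7a* and *tifa*. *mmp9*, named here after its values were seen, encodes a secreted gelatinase of inflamed and remodelled tissue. Its values were 945, 748, 1647 and 361 normalized CPM in *cora* libraries, against 33.8, 16.8 and 15.9 in control libraries. The groups did not overlap, and r with *scpp8*, the measure it was chosen by, was 0.985 over 7 libraries. The keratin gene *krt18a.1* was at 759, 837, 1245 and 570 normalized CPM in *cora* libraries, against 338, 282 and 304 in control libraries, a log2 difference of 1.47.

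The genes most like *spp1* were *ppm1d*, *qsox2*, *dachd*, *asap1* and *pias2* (r from 0.892 to 0.973). Those most like *sparc* were *fam50a*, *srsf6*, *osbpl11*, *fmod* and *anxa11* (r from 0.952 to 0.975). *fmod* encodes fibromodulin, a collagen-binding proteoglycan. The log2 fold changes of these genes ran from -0.30 to 0.17, against -0.84 (SE 0.72) for *spp1* and 0.05 (SE 0.35) for *sparc*.

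The wider pathway was read from 7 lists of matrix and mineralization genes, with 68 gene IDs, of which 59 were tested. By edgeR, 1 rose and 2 fell, so 5.08% of those tested passed, against 1.97% of all tested genes (1.11% higher and 0.860% lower). This share rests on 3 genes, and 0 to 2 passed with each library left out. The lists were chosen with earlier results of these data known, so nothing is read from the share. The list medians lay between -0.40 and 0.60 on the log2 scale, against -0.03 over all genes.

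The gene that rose was *cd44a*, which encodes a receptor for hyaluronan and, in mammals, for osteopontin. Its values were 156, 115, 219 and 26.7 normalized CPM in *cora* libraries, against 13.5, 4.85 and 6.77 in control libraries. The groups did not overlap, and the mutant pools again stood in the order 3, 1, 2 and 4. The means were 129 ± 80.5 (SD, n = 4) in *cora* and 8.38 ± 4.55 (SD, n = 3) in control hearts (log2 fold change 3.95, SE 0.71, adjusted p = 0.0344 by edgeR). The adjusted p by edgeR was 0.0822, 0.0628 and 0.0772 without *cora* 1, 2 and 3, 0.154 without control 3 and 0.163 without the unnumbered control, with log2 fold changes of 3.57 or more. Under limma voom *cd44a* did not pass either (log2 fold change 3.77). Its r with *scpp8* was 0.981 over 7 libraries and 0.920 over the 4 *cora* libraries. Since *cd44a* and *scpp8* both separate the genotypes, a high r over the 7 libraries follows from that. No test is given for it, and a link between these genes was not tested.

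Of the 8 tested osteopontin receptor genes, 1 rose and 0 fell by edgeR, against 1.11% higher and 0.860% lower of all tested genes. The median log2 fold change was 0.32. At an unadjusted p under 0.05 by edgeR there were 3 of 8, against 17.7% of all tested genes. By DESeq2 1 passed (8.29% of all genes), by limma voom 0 (1.79%) and by limma voom with sample quality weights 2 (14.4%). The paralog *cd44b* was low, at 0 to 0.586 normalized CPM in *cora* and 0.458 to 1.76 in control libraries, with the lowest value of the list (log2 fold change -2.38, SE 0.99, adjusted p = 0.253 by edgeR). The integrin subunit gene *itgb6* was at a mean of 21.4 normalized CPM in *cora* and 9.78 in control hearts (log2 fold change 1.13, adjusted p = 0.231 by edgeR). The ligand gene *spp1* itself stayed below 4.07 normalized CPM in each library but control 3, where it was at that level.

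**Figure D4:**
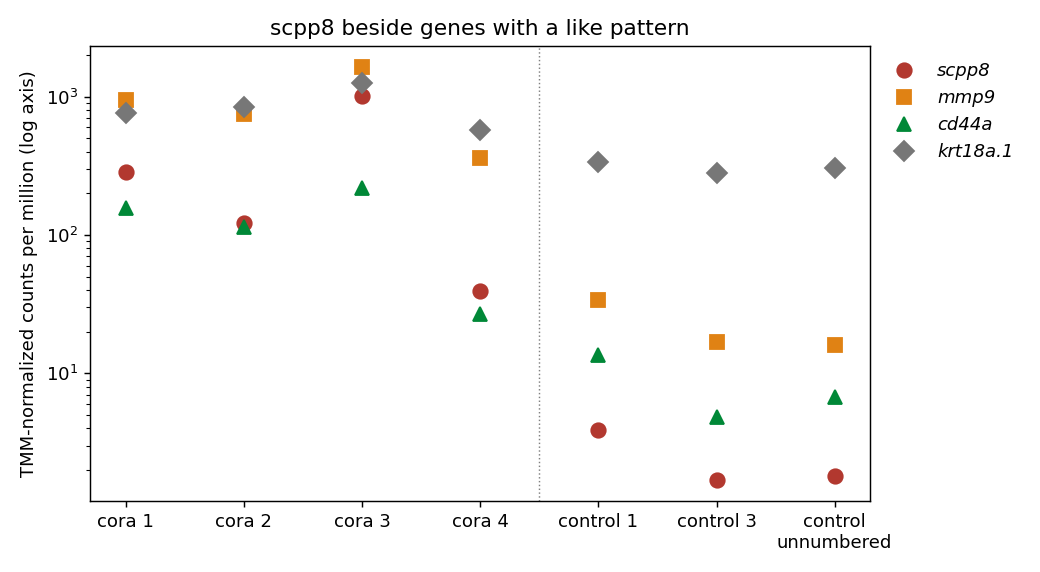
TMM-normalized CPM (log axis) of *scpp8*, *mmp9*, *cd44a* and *krt18a.1* in each library, *cora* left of the dotted line and control right. *scpp8*, *mmp9* and *cd44a* are highest in *cora* 3 (1018, 1647 and 219) and, among *cora* pools, lowest in *cora* 4 (39.1, 361 and 26.7).

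Among 10 tested relatives of *sparc* and the SCPP genes, 1 fell and 0 rose by edgeR, against 0.860% lower and 1.11% higher of all tested genes. The median was -0.13. At an unadjusted p under 0.05 by edgeR there were 3 of 10, against 17.7% of all tested genes. By DESeq2 3 passed (8.29% of all genes), by limma voom 1 (1.79%) and by limma voom with sample quality weights 4 (14.4%). The gene that fell was *smoc2*, which encodes a secreted SPARC-related modular calcium-binding protein. Its values were 4.10, 4.97, 3.05 and 2.83 normalized CPM in *cora* libraries, against 11.1, 10.4 and 10.5 in control libraries, with no overlap and little spread (log2 fold change -1.51, SE 0.29, adjusted p = 0.0399 by edgeR). The adjusted p by edgeR was 0.0913, 0.105 and 0.0511 without *cora* 1, 3 and 4, 0.154 without control 3 and 0.165 without the unnumbered control, with log2 fold changes of -1.40 to -1.56. It was 0.0576 with scaling by library size alone. *stm* (starmaker), an acidic protein gene of the ear stone matrix of fish, was at 399, 704, 312 and 318 normalized CPM in *cora* libraries, against 83.9, 232 and 152 in control libraries. These groups did not overlap either, but the adjusted p was 0.114 by edgeR (log2 fold change 1.48, SE 0.42). The exons of *stm* overlap those of 1 other annotated gene.

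Among 11 tested osteoblast and bone matrix genes, 1 fell and 0 rose by edgeR, against 0.860% lower and 1.11% higher of all tested genes. The median was -0.22. At an unadjusted p under 0.05 by edgeR there were 2 of 11, against 17.7% of all tested genes. By DESeq2 1 passed (8.29% of all genes), by limma voom 0 (1.79%) and by limma voom with sample quality weights 1 (14.4%). The gene that fell, *kera*, encodes keratocan, a proteoglycan best known from the cornea rather than from bone. Its values were 14.9, 21.8, 9.10 and 21.8 normalized CPM in *cora* libraries, against 66.5, 32.7 and 90.8 in control libraries (log2 fold change -1.90, SE 0.40, adjusted p = 0.0485 by edgeR). With any 1 library left out it missed the threshold, with an adjusted p by edgeR between 0.0508 (without *cora* 4) and 0.197 (without the unnumbered control) and a log2 fold change between -2.21 and -1.55. It was also missed under limma voom (adjusted p = 0.0581) and with scaling by library size alone (edgeR adjusted p = 0.0546). *sp7* (osterix), the transcription factor that defines osteoblasts, was at 0.0411 to 3.47 normalized CPM in *cora* and 0.327 to 1.25 in control libraries (log2 fold change 1.33, SE 1.03, adjusted p = 0.554 by edgeR). The collagen gene *col1a1a* averaged 1343 normalized CPM in *cora* and 1460 in control hearts (log2 fold change -0.12, adjusted p = 0.902 by edgeR). The genes *bglap* and *mgp* of the same list were too low to be tested, and the exons of each overlap those of 1 other annotated gene.

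Among 9 tested genes of mineralization and phosphate handling, 0 passed in either direction by edgeR, and the median was -0.40. At an unadjusted p under 0.05 there were 5 of 9, against 17.7% of all tested genes. By DESeq2 1 passed (8.29% of all genes), by limma voom 1 (1.79%) and by limma voom with sample quality weights 3 (14.4%). The lowest, *phex*, a peptidase gene that in mammals restrains the loss of phosphate and cleaves SCPP-derived peptides, was at 5.86, 11.7, 6.33 and 7.64 normalized CPM in *cora* libraries, against 19.98, 22.4 and 17.4 in control libraries. The groups did not overlap, and the adjusted p was 0.0506 by edgeR (log2 fold change -1.34, SE 0.28). *phex* passed under 8 of the 18 alternatives, among them edgeR without *cora* 2 (adjusted p = 0.0302), and missed under the other 10. The highest was *abcc6a* (log2 fold change 1.09, SE 0.63, adjusted p = 0.412 by edgeR), with overlapping groups. The tissue phosphatase gene *alpl* averaged 9.18 normalized CPM in *cora* and 16.4 in control hearts (log2 fold change -0.84, adjusted p = 0.216 by edgeR).

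The other 3 lists held 0 genes past the test by edgeR, DESeq2 or limma voom. At an unadjusted p under 0.05 there was 1 in calcium homeostasis, 1 in collagen processing and 0 among the tooth signals, against 17.7% of all tested genes. Limma voom with sample quality weights passed 1 gene, of calcium homeostasis, against 14.4% of all genes. Among 8 tested genes of calcium homeostasis the median was -0.31, the lowest was *cyp27b1* (0 to 0.262 normalized CPM in *cora* and 0.516 to 0.646 in control libraries) and the highest *pth1a*, a parathyroid hormone gene (0.336 to 0.534 in *cora* and 0 to 0.0982 in control libraries), both on very few reads. Among 8 tested genes of collagen processing the median was 0.60, from *p4ha1a* (-0.64, SE 0.72, adjusted p = 0.701 by edgeR) to *pcolceb* (2.69, SE 1.19, adjusted p = 0.282 by edgeR). Among 5 tested tooth epithelium signal genes it was 0.23, from *eve1* (-0.04, SE 0.56, adjusted p = 0.983 by edgeR) to *eda* (0.68, SE 0.67, adjusted p = 0.661 by edgeR).

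Markers of several other tissues that the pools could hold were summed beside the members. The macrophage and osteoclast list held 12 gene IDs, of which 1 was at 0 in every library. It summed to 113, 68.2, 146 and 54.5 normalized CPM in *cora* libraries, against 65.4, 76.0 and 74.2 in control libraries. Of its 9 tested genes, 0 passed by edgeR, DESeq2 or limma voom, against 1.97%, 8.29% and 1.79% of all genes. At an unadjusted p under 0.05 by edgeR there were also 0, against 17.7%. The sum of this list put the mutant pools in the same order as *scpp8*, mostly through *ctsk*. The *ctsk* values were 74.6, 47.7, 125 and 38.2 in *cora*, against 30.9, 59.11 and 54.0 in control libraries. *coro1a* came next, at 25.9, 9.87, 11.9 and 8.01 in *cora*, against 14.1, 9.16 and 9.52 in control libraries, and was highest in *cora* 1. *ptprc* and *lcp1* stayed at or below 8.05 normalized CPM and did not follow this order. *ptprc* was at 2.55, 2.17, 1.29 and 1.64 in *cora* libraries, lowest where *scpp8* was highest, and *lcp1* at 4.52, 2.09, 2.26 and 3.37. With 11 marker lists summed, a shared order of so few pools can arise by chance, and nothing is read from it. The cartilage list summed to 67.0 to 220 in *cora* and 80.8 to 146 in control libraries, and the mesenchyme list to 180 to 352 in *cora* and 184 to 228 in control libraries.

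Epidermis sums overlapped between genotypes, and 0 of 11 tested epidermis genes passed by edgeR, against 1.97% of all tested genes. At an unadjusted p under 0.05 by edgeR there were 4, against 17.7%. By DESeq2 1 passed (8.29% of all genes), by limma voom 0 (1.79%) and by limma voom with sample quality weights 3 (14.4%). Lens markers summed to 1007 to 12302 normalized CPM in *cora* and 239 to 533 in control libraries. By edgeR 3 of 6 tested lens genes were higher, against 1.11% of all tested genes. Exocrine pancreas markers summed to 733 to 1768 in *cora* and 6654 to 25207 in control libraries. By edgeR 10 of 10 were lower, against 0.860% of all tested genes. Liver markers summed to 2819 to 25208 in *cora* and 7484 to 26217 in control libraries. Of 10 tested liver genes 0 passed by edgeR (1.97% of all tested genes) and 6 by limma voom with sample quality weights (14.4%). Skeletal muscle markers summed to 3276 to 10479 in *cora* and 2184 to 8666 in control libraries. The lens sums stood in the order 4, 3, 1 and 2 among the mutant pools, unlike *scpp8*. The part of any of these tissues in the member values was not tested.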

How the data were processed

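According to the paper, RNA was sequenced from pooled hearts, whereas the sample titles name zebrafish embryos. There were 4 *cora* and 3 control libraries, prepared with a SMARTer mRNA kit. The submitters' processing notes list STAR 2.0.4b, featureCounts 1.4.5 (Subread), edgeR and limma. The authors deposited whole-number counts per Ensembl gene on Zv9, CPM (the count scaled by the library's total) and RPKM (CPM per kilobase of exon). Strand and multiple matches in counting are not given in the sources used here.

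Counts were tested in R 4.3.3 with edgeR 4.0.16 (TMM, filterByExpr, glmQLFit and glmQLFTest, Benjamini-Hochberg over 21632 genes, prior count 0.125). The SE of an edgeR log2 fold change was derived from the test. It is the absolute log2 fold change divided by the square root of the quasi-likelihood F. For correlations, CPM was log2-transformed after adding a prior count of 2. The code was tested on simulated data. Symbols, written in lower case, came from a table that matched 21939 of 33737 IDs, and 160 of 270 list symbols matched. limma 3.58.1 and DESeq2 1.42.0, other scalings and filters, and each library left out were the alternatives.

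The members and lists were chosen with earlier results of these data known. Genes named were all members, list genes past the test (at most 6 a list), each list's lowest and highest fold change, tested genes within 100000 bp, the genes most like *scpp8*, *spp1* and *sparc*, and *taf5*. Other genes named (*itgb6*, *col1a1a*, *bglap*, *mgp*, *alpl*, *ctsk*, *coro1a*, *ptprc*, *lcp1*, *krt4* and *ambn*) were added after their values were seen. Protein features planned for the members were not analysed, and no sequences were used here. Replicate pairs of each group differed by more than sampling noise.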

Additional observations from a re-analysis of the deposited data

Results flagged for a closer look

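*scpp9* in *cora* 2 was far from the other *cora* libraries, at 42.0 normalized CPM, against 0.293, 0.0924 and 0.287 in *cora* 1, 3 and 4. The gap to the nearest library was 0.995 of the whole range, above Dixon's 95% critical value for 4 samples. This was 1 of 11 genes looked at in this way, and chance marks about 1 in 20 such groups if the values are normally distributed. The rule was run on normalized CPM without a log, so that rate need not hold here. Among the control libraries, which are too few for this rule, control 1 was at 101. The part of other tissue in these libraries was not tested.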

How the results depend on the processing

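*scpp8* was higher in *cora* under each of the 18 alternatives, with log2 fold changes from 5.93 to 7.88. The highest came from a fit of the libraries numbered 1 and 3 alone. The group was chosen on this contrast, and the lowest *cora* library was 10.1 times the highest control library. The sign could therefore hardly turn, and nothing is read from its stability. Over all genes 426 passed, and 1789 by DESeq2, 3113 by limma voom with sample quality weights and 34 to 1207 with each library left out. List genes past the test numbered 3, and 1 with scaling by library size alone, 6 by DESeq2, 11 by limma voom with sample quality weights and 0 to 2 with each library left out. The log2 fold change with each library left out ran from -1.19 to 0.23 for *spp1*, -0.12 to 0.33 for *sparc*, -2.61 to 1.496 for *scpp5*, -7.21 to 3.41 for *scpp9*, -0.72 to 3.28 for *odam*, -2.43 to 2.85 for si:dkey-22i16.7, -1.03 to 0.12 for *p4ha1a* and -0.41 to 0.43 for *eve1*. The sign also turned for *scpp5* under limma voom with sample quality weights (1.20), for *sparc* under limma voom (-0.0029) and in the fits of the libraries numbered 1 and 3 (-0.03 and -0.01), for si:dkey-22i16.7 under limma voom (0.63) and voom with sample quality weights (1.65), and for *eve1* with library size alone (0.11) and voom with sample quality weights (0.22). The causes were not tested.

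*cora* and control share the numbers 1 and 3 only, and the labels do not say what a number marks (r of the paired deviations 0.0702). On these 4 libraries, 0 genes and 0 list genes passed with the replicate block, and likewise 0 and 0 without the block. The log2 fold change with the block and without it was -7.56 and -8.00 for *scpp9* and -0.57 and -0.81 for *odam*, and for *spp1* it was -2.14 without the block. With so few libraries these fits say nothing about stability.

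The depth limits what can be seen for *scpp1*, *scpp7* and *spp1* and for the low pools of *scpp5* and *scpp9*, some of which hold 2 to 11 reads. For *scpp8* and *sparc* the spread between pools was far larger than counting error, which floors alone cover. The planned protein features could not be run.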
